A study of Mus musculus with 2 samples.

Results

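The genes described here are 10 members of the NRF2 antioxidant system, chosen by gene symbol: Nfe2l2, Keap1, Hmox1, Nqo1, Gclc, Gclm, Srxn1, Txnrd1, Prdx1 and Gsr. All 10 were found among the 19505 named genes of a whole-transcript GeneChip array, each through 1 probe set. Expression was measured in mouse macrophages grown from bone marrow with the macrophage growth factor M-CSF (given on day 0 and again on day 3 at 25 ng/mL, with cells taken from day 5, per the labels' protocols). There were 2 groups with 1 array each: LysM (+);MC4RTB/TB macrophages, written LysM (+) below, and MC4RTB/TB macrophages, written TB/TB below. Both genotypes carry MC4RTB/TB, and LysM (+) is what sets them apart. The labels do not spell out what either part of the name stands for. They give no age, sex or number of mice, no treatment was applied, and the cells were a culture of primary cells rather than a clone. As background, a TB allele of the melanocortin 4 receptor gene is known as one silenced by a removable block, and LysM as a promoter often used to drive Cre recombinase in myeloid cells. A single array per genotype leaves no measure of spread between samples, so nothing could be tested and every difference below describes these 2 arrays.

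NRF2, encoded by Nfe2l2, is the transcription factor that switches on the cell's antioxidant genes. KEAP1 holds NRF2 in a ubiquitin ligase complex that has it degraded, and oxidants or electrophiles modify KEAP1 so that NRF2 accumulates, pairs with a small MAF protein and binds antioxidant response elements. Because this switch works on the protein, the mRNA level of Nfe2l2 or Keap1 does not measure it, whereas mRNAs of the target genes are its usual readout. In macrophages these targets make glutathione, run the thioredoxin and peroxiredoxin cycle, break down heme and reduce quinones.

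Of the 10 genes, 1 was higher in LysM (+) macrophages by 1.5-fold or more, and 0 were lower by that much. This gene was Srxn1, sulfiredoxin, the enzyme that repairs over-oxidised peroxiredoxins. To count, a gene needed log2 values at least 1.5-fold apart (0.58) and a brighter value of 6.12 or more, the middle of the named probe sets' signal, termed the brightness floor. By the same rule 10.9% of the 10137 genes at or above the floor were higher in LysM (+), 5.16% were lower and 16.1% differed in either direction, so 1 of 10 is close to the share of genes at large. Over the members the median difference was 0.07 on the log2 scale, against 0.07 over all genes at or above the floor, and 6 members were higher by any amount while 4 were lower, as 57.1% and 42.9% of those genes were. The signs of Gclc (0.07) and Nqo1 (-0.02) changed under some rescalings of the values. The median absolute difference was 0.25 for the members and 0.26 for the genes at or above the floor. All 10 members reached the floor on both arrays. In the plot of members among all named genes, Srxn1 stands above the 1.5-fold line and Txnrd1 just under it.

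**Figure D1:**
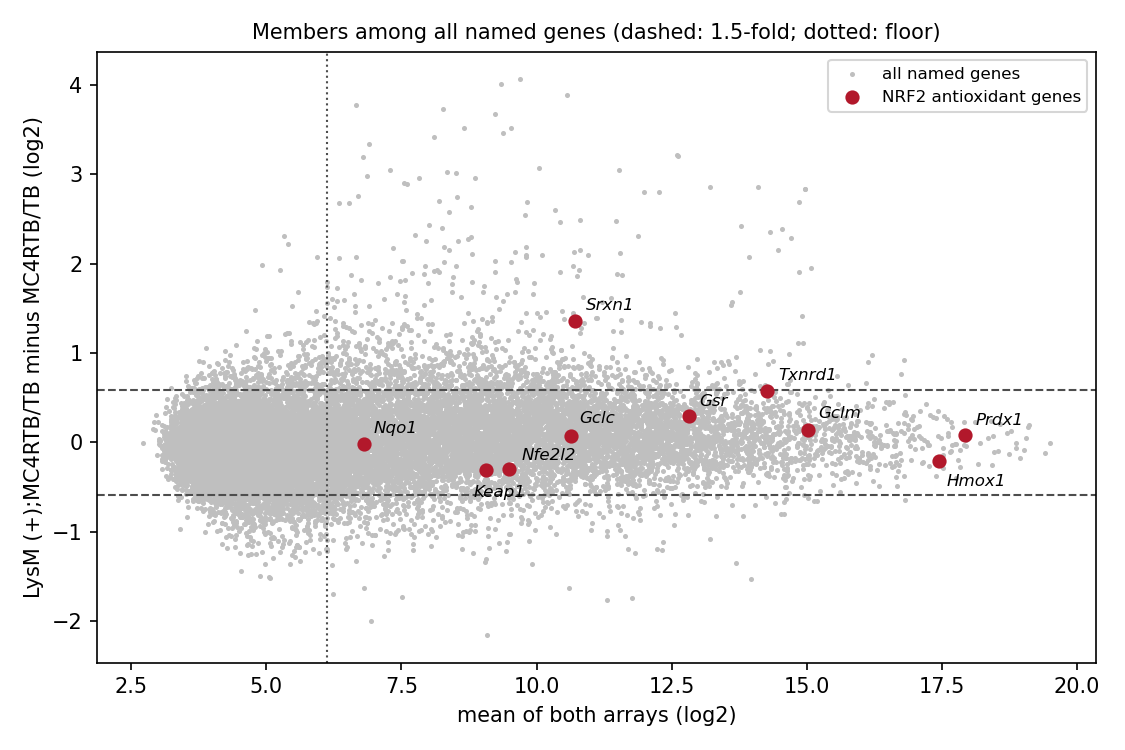
Each grey point is 1 of 19505 named genes, with the mean of both arrays (log2) across and the LysM (+) minus TB/TB difference (log2) upward; the 10 NRF2 antioxidant genes are in red, dashed lines mark 1.5-fold and the dotted line marks the floor of 6.12. Srxn1, at 1.36, is the member outside the dashed lines, and the other 9 lie between -0.31 and 0.58.

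The arrays were alike in distribution: their sorted values differed by at most 0.16, and the 23 background control probe sets, which lay between 3.09 and 6.81, differed between arrays by at most 0.09. Mc4r itself had 4.45 in LysM (+) and 4.57 in TB/TB cells, within the background control range, so it gives no check of the genotype labels. Of 12 macrophage markers 10 were measured and all 10 reached the floor on both arrays. Of these 10, 0 differed by 1.5-fold, against 16.1% of all genes at or above the floor. The summed linear signal of the macrophage markers was 0.90 times as high in LysM (+) as in TB/TB cells. Such a sum is weighted towards the brightest probe sets, here Lyz2, at 18.86 in LysM (+) and 19.04 in TB/TB cells. Other marker lists differed between the arrays. All 14 measured cell cycle genes were at least 1.5-fold higher in LysM (+), against 10.9% of all genes at or above the floor. Their median difference was 2.89 on the log2 scale. Top2a, Ccna2, Cdk1 and Bub1 had their TB/TB values inside the background control range, so the sizes of their differences are uncertain. The summed signal of the 14, most of it from Pcna, whose difference of 0.90 was the smallest, was 2.26 times that in TB/TB cells. Of 11 measured neutrophil genes 10 reached the floor. Of these, 5 passed 1.5-fold upward and 0 downward, against 10.9% and 5.16% of all genes at or above the floor. Among the 5, Cxcr2 had both values inside the background control range, and Elane and Retnlg had their TB/TB values inside it. By less than 1.5-fold, 2 of the 10 were lower, Csf3r (-0.57) and Mpo (-0.30). The median over the 10 neutrophil genes at or above the floor was 0.61, and the difference was largest for Ltf, lactoferrin (2.60-fold higher). The sum over the 11 was 111054 in LysM (+) and 88903 in TB/TB cells, most of it from Ngp, whose difference was 0.40. The monocyte sum was 1.33 times as high in LysM (+), most of it from Ly6c2, whose difference was 0.36. Of 6 measured monocyte markers 5 reached the floor and 1 was counted, Cx3cr1, with a difference of 1.90. That is 20% of the 5, against 16.1% of all genes at or above the floor. By less than 1.5-fold, Nr4a1 was lower (-0.49), with its LysM (+) value inside the background control range. At least 1 value was at or above the floor in 0 of 7 mast cell and basophil markers, 0 of 5 B cell markers, 1 of 7 T and NK cell markers, 1 of 4 erythroid markers and 3 of 7 dendritic cell markers. Fibroblast markers had 5 of 7 at or above the floor with 1 counted, Col1a2, lower. Osteoclast markers had 4 of 7 with 1 counted, Dcstamp, lower, and progenitor markers had 2 of 6 with 0 counted. The counts in the fibroblast, osteoclast and progenitor lists stand beside the same 16.1% of all genes at or above the floor. Fewer cells of a type and less RNA per cell cannot be told apart in such cultures, and the part of these shifts in the results below was not tested.

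The sensor pair came first in the pathway and was slightly lower in LysM (+) cells. Nfe2l2 had a log2 value of 9.34 in LysM (+) and 9.64 in TB/TB macrophages, a difference of -0.29 or 1.23-fold lower. Keap1, the gene of its inhibitor, had 8.91 in LysM (+) and 9.22 in TB/TB cells, a difference of -0.31 or 1.24-fold lower. Neither reached 1.5-fold, and a difference at least as low was found in 16.8% of genes above the floor for Nfe2l2 and in 15.7% for Keap1. The mRNAs of activator and inhibitor thus differed by almost the same amount, 0.02 apart on the log2 scale.

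**Figure D2:**
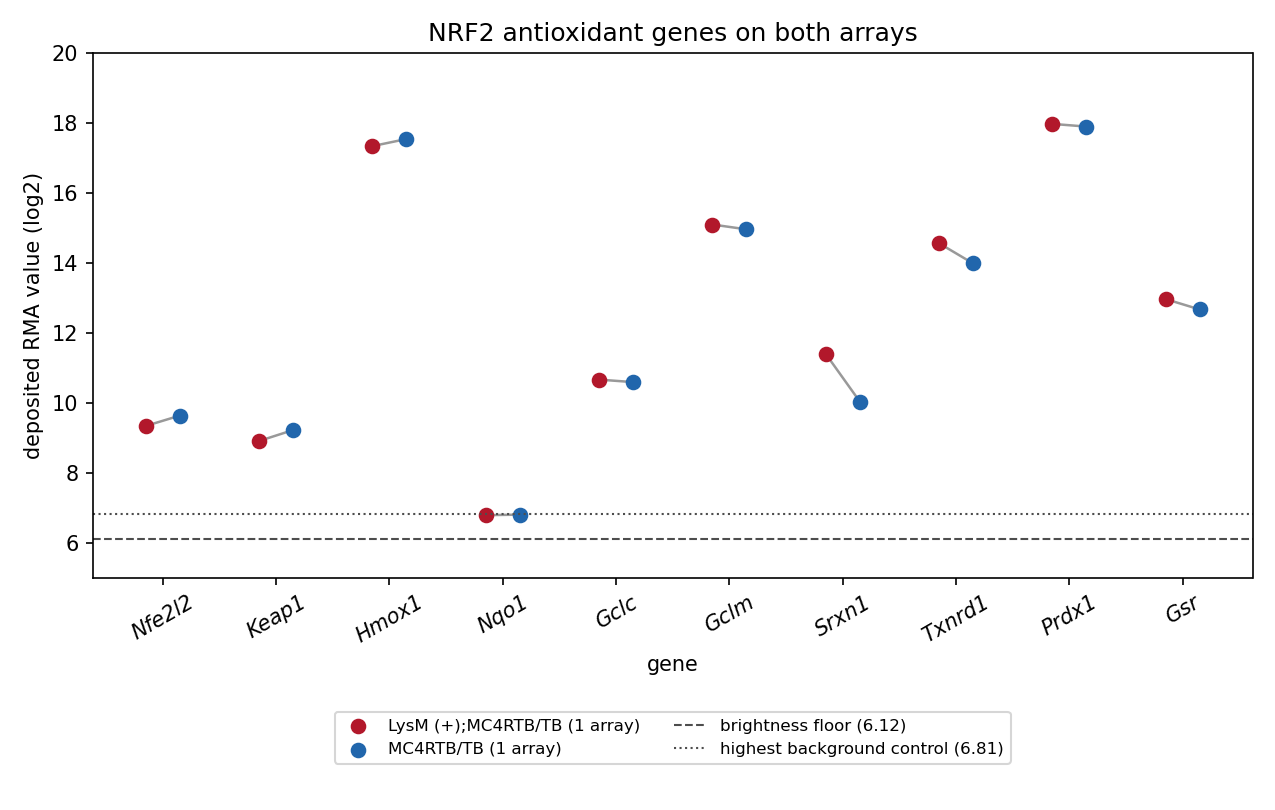
Deposited RMA values (log2) of the 10 genes, with the LysM (+);MC4RTB/TB array in red at the left of each pair and the MC4RTB/TB array in blue at the right; the dashed line is the floor of 6.12 and the dotted line the highest background control value, 6.81. Levels of different genes come from different probes and are not comparable, so only the slope within a pair is to be read: it is steepest for Srxn1, at 11.40 in LysM (+) and 10.04 in TB/TB cells.

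Among the target genes, those of the thioredoxin and peroxiredoxin cycle held the members with the largest differences. In this cycle a peroxiredoxin reduces peroxide, thioredoxin restores the peroxiredoxin, thioredoxin reductase restores thioredoxin with NADPH, and sulfiredoxin rescues peroxiredoxin that peroxide has over-oxidised. Srxn1 had 11.40 in LysM (+) and 10.04 in TB/TB macrophages, a difference of 1.36 or 2.57-fold higher. Of the 10137 genes above the floor, 172 (1.7%) were at least as much higher. Txnrd1, the cytosolic thioredoxin reductase and a selenoprotein, had 14.56 in LysM (+) and 13.98 in TB/TB cells, a difference of 0.58 that at 1.49-fold fell just short of the 1.5-fold line, and 11.4% of genes were at least as much higher. Prdx1, the cytosolic peroxiredoxin that sulfiredoxin can repair, had 17.97 in LysM (+) and 17.90 in TB/TB cells, a difference of 0.08 or 1.05-fold. The difference of the repair enzyme was 1.28 larger on the log2 scale than that of its substrate, whose values, like those of Hmox1 below, stood close to the upper end of the scale.

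The promoter windows of these 3 genes were picked for printing because the genes differed by unlike amounts and because NRF2 acts through such sequences. They are RefSeq sequence of the build GRCm38.p6, the 250 bases before an annotated transcript start, 5′ to 3′ along the gene. Capitals mark matches to TGACNNNGC, the antioxidant response element core, or to TGANTCA, the site of AP-1 factors, searched on both strands. Distances below run from the start to the upstream end of a match.
Srxn1, chr2:152105274-152105523, plus strand: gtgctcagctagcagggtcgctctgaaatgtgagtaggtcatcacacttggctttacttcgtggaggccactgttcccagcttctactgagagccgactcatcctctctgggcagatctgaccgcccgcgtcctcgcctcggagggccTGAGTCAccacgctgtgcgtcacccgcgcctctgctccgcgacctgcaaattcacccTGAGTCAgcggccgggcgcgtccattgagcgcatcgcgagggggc
Txnrd1, the second of 3 annotated starts, chr10:82858956-82859205, plus strand: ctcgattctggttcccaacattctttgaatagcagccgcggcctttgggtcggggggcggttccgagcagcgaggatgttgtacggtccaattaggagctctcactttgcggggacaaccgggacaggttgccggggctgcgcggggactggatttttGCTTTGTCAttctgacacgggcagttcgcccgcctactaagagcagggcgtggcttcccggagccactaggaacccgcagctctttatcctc
Prdx1, chr4:116685349-116685598, plus strand: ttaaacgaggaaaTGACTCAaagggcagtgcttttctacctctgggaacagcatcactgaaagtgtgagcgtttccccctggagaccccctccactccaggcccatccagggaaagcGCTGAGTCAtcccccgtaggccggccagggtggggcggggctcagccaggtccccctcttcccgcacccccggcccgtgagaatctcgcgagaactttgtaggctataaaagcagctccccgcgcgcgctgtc

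In the Srxn1 window the capitals are a pair of AP-1 site matches that begin 102 and 45 bases before the start, each reading TGAGTCA. An antioxidant response element core match, TGACCTAGC on the minus strand, begins 28 bases after the start and so lies outside the printed stretch. The AP-1 match 45 bases before the start is followed by GC and reads TGAGTCAGC, letters that also fit a broader form of the antioxidant response element. In the Prdx1 window an AP-1 match begins 237 bases before the start, and another overlaps an element core, TGACTCAGC on the minus strand, that begins 133 bases before it. The printed Txnrd1 window holds a core match, TGACAAAGC on the minus strand, 92 bases before the start, and the windows at the other 2 starts of this gene hold none.

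RefSeq windows of 300 bases, from 250 before to 50 after a start, were at hand for 7 of the 10 genes in 9 windows. Gclc, Gsr and Hmox1 had no window here. An element core was found in 5 of the 7 genes, against 14% of 27025 genes with a window. Besides the 3 genes above these were Gclm, with TGACGGTGC on the minus strand 134 bases before the start, and Nfe2l2 itself, with TGACTCCGC 240 bases before it. An AP-1 match was found in 2 of the 7, Srxn1 and Prdx1, against 8.97% of all genes. The joined letters TGANTCAGC, chosen after the matches were seen, stood in the same 2 genes, against 1.37% of all genes. The E-box letters CACGTG were in 0 of the 7, against 8.09%. The 10 genes were picked as NRF2, its inhibitor and known targets, so the count of element cores is a description of that choice. A letter match is not a site shown to be bound. Srxn1 and Prdx1 both held element and AP-1 letters and differed by 1.36 and 0.08. Of the AP-1 subunit genes, listed after the data were seen, 10 were measured, 8 reached the floor and 1 was counted, namely Fos, with a difference of 2.10, or 4.29-fold higher in LysM (+). That is 12.5% of the 8, against 10.9% of all genes at or above the floor counted higher. Jun, Junb and Jund, the usual partners of Fos, differed by 0.08, 0.10 and -0.29. The part of Fos in the Srxn1 difference was not tested.

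**Figure D3:**
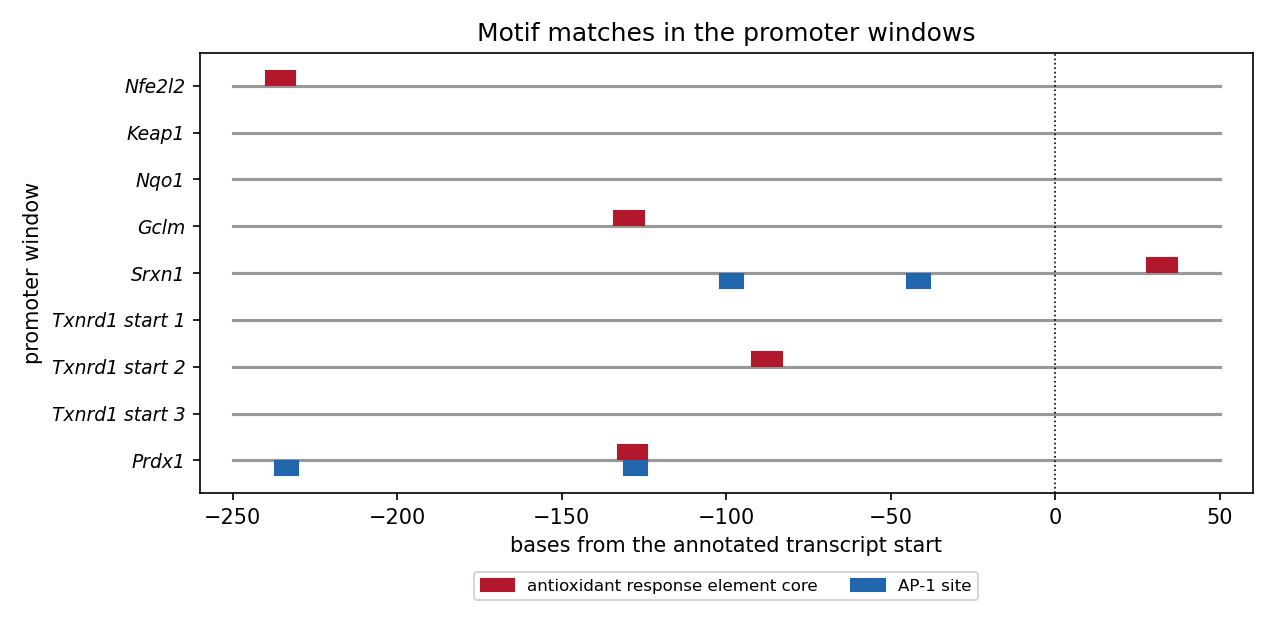
Positions of motif matches in 9 promoter windows of 7 genes, in bases from the annotated transcript start (dotted line at 0); red boxes above a line are antioxidant response element cores and blue boxes below it AP-1 sites. Srxn1 and Prdx1 hold both kinds, and Keap1, Nqo1 and the other 2 Txnrd1 starts hold neither.

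The rest of the thioredoxin system showed how far the Srxn1 difference was shared. Of 20 genes on a list of thioredoxins, thioredoxin reductases, peroxiredoxins, sestrins and methionine sulfoxide reductases, 18 were measured and all 18 reached the floor. Of these 1 was counted higher and 1 lower (11.1% of the 18, against 16.1% of all genes at or above the floor), with a median difference of -0.01. The higher one was Prdx4, the peroxiredoxin of the endoplasmic reticulum, at 11.33 in LysM (+) and 10.74 in TB/TB cells (0.59), a call that quantile normalization (0.50) and loess (0.49) ended. Prdx3, the mitochondrial peroxiredoxin, lay just under the line at 9.49 in LysM (+) and 8.91 in TB/TB cells (0.58). Prdx2, another cytosolic form, differed by 0.17. The 4 peroxiredoxins measured here, Prdx1 to Prdx4, a grouping made after their values were seen, had differences between 0.08 and 0.59, where 57.1% of all genes at or above the floor were higher by any amount. Txn1, cytosolic thioredoxin, had 15.71 in LysM (+) and 15.42 in TB/TB cells (0.29), and its mitochondrial counterpart Txn2 differed by 0.23. The mitochondrial reductase Txnrd2 differed by -0.13, which leaves Txnrd1 0.70 above it in difference, and Txnrd3, within the background control range on both arrays, by 0.42. Msrb2, a methionine sulfoxide reductase of mitochondria, was the lower one, at 6.42 in LysM (+) and 7.31 in TB/TB cells (1.86-fold), with its LysM (+) value inside the background control range.

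The members of glutathione synthesis and recycling, Gclc, Gclm and Gsr, each differed by less than 1.5-fold. Gclc, the catalytic subunit of glutamate-cysteine ligase, the rate-limiting enzyme of glutathione synthesis, had 10.67 in LysM (+) and 10.59 in TB/TB macrophages, a difference of 0.07. Quantile normalization gave -0.04 for Gclc and loess -0.02. Gclm, the modifier subunit, had 15.10 in LysM (+) and 14.96 in TB/TB cells, a difference of 0.14 or 1.10-fold, so both subunits of the ligase were within 0.07 of each other in difference. Gsr, glutathione reductase, which returns oxidised glutathione to its reduced form with NADPH, had 12.96 in LysM (+) and 12.67 in TB/TB cells, a difference of 0.30 or 1.23-fold, and 27.7% of genes above the floor were at least as much higher. Beside these members, Slc7a11, the cystine importer and a known NRF2 target, had 8.44 in LysM (+) and 7.97 in TB/TB cells (0.47, or 1.38-fold). Slc3a2, the partner chain of this importer, had 16.35 on both arrays. Gss, glutathione synthetase, had 7.76 in LysM (+) and 7.38 in TB/TB cells (0.38). On the list of other genes of glutathione synthesis, transport and breakdown, 12 of 13 were measured and 7 reached the floor. Of these 7, 0 were counted in either direction, against 16.1% of all genes at or above the floor. Ggct, which breaks down gamma-glutamyl peptides, had the lowest difference among those 7, -0.35, with both values inside the background control range.

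Enzymes that use glutathione were counted about as often as genes at large. Of 33 listed peroxidases, transferases and glutaredoxins, 31 were measured, 23 reached the floor, 1 was counted higher and 3 lower. That is 17.4% of the 23, against 16.1% of all genes at or above the floor, of which 10.9% were higher and 5.16% lower. The median difference of the 31 was -0.21, and of the 23 it was -0.08. Gpx3, the secreted glutathione peroxidase, had 10.77 in LysM (+) and 11.56 in TB/TB cells (1.73-fold lower). Gstt2, a transferase of the theta class, had 7.05 in LysM (+) and 7.80 in TB/TB cells (1.68-fold lower), and Gstm3, of the mu class, had 6.87 in LysM (+) and 7.46 in TB/TB cells (-0.59), a call that centring (-0.58) and quantile normalization (-0.57) ended. Gstp1, of the pi class, had 9.24 in LysM (+) and 8.56 in TB/TB cells (1.60-fold higher), and its close copy Gstp2 differed by 0.53. Looked at by class after the values were seen, the 7 measured mu-class genes, Gstm1 to Gstm7, had differences from -0.59 to -0.10. Gstm6 and Gstm7 were under the floor on both arrays, and of all genes at or above it 42.9% were lower by any amount. Genes within a transferase class are similar in sequence and their probes can share signal. The abundant cellular peroxidase gene Gpx1 differed by 0.45, and Gpx4, which protects membrane lipids, by -0.04.

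The remaining members were the heme and quinone enzymes. Hmox1, heme oxygenase, which splits heme into biliverdin, carbon monoxide and iron and is highly inducible in macrophages, had 17.34 in LysM (+) and 17.54 in TB/TB macrophages, a difference of -0.20 or 1.15-fold lower. It stood near the top of the measured range, which ends at 19.51. Nqo1, which reduces quinones to hydroquinones, had 6.79 in LysM (+) and 6.81 in TB/TB cells, a difference of -0.02. Both Nqo1 values were inside the background control range, so a difference in Nqo1 was not measurable with this probe set.

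Around Hmox1, 11 of 12 listed genes of heme breakdown, heme transport and ferritin were measured and 10 reached the floor. Of these 10, 0 were counted, against 16.1% of all genes at or above the floor. The median difference of the 11 was 0.07. Slc40a1, the iron exporter ferroportin, had 14.41 in LysM (+) and 14.80 in TB/TB cells (-0.39). Blvra, biliverdin reductase, which takes the pathway one step on, differed by 0.23, Fech, which makes heme, by -0.21, and the ferritin genes Fth1 and Ftl1 by -0.01 and 0.12. Around Nqo1, 20 of 21 genes of quinone, carbonyl and xenobiotic detoxification were measured and 17 reached the floor, of which 2 were higher and 1 lower by at least 1.5-fold (17.6% of the 17, against the same 16.1%). Ephx1, the microsomal epoxide hydrolase, had 9.25 in LysM (+) and 10.60 in TB/TB cells, or 2.56-fold lower, as far in the negative direction as Srxn1 was in the positive one. Cbr2, a carbonyl reductase, had 8.97 in LysM (+) and 8.02 in TB/TB cells (1.94-fold higher), and Akr1b8, an aldo-keto reductase, had 12.77 in LysM (+) and 11.82 in TB/TB cells (1.92-fold higher).

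**Figure D4:**
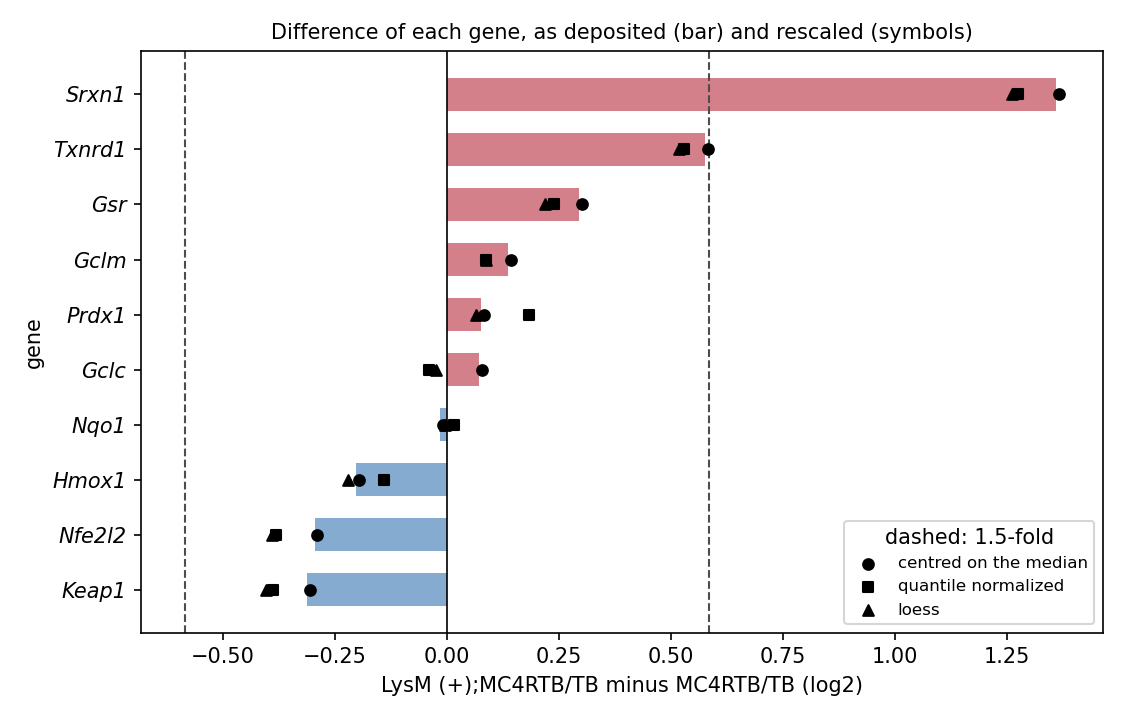
LysM (+) minus TB/TB difference (log2) of each gene, as bars for the deposited values and as symbols after centring, quantile normalization or loess; dashed lines mark 1.5-fold. Srxn1 stayed between 1.26 and 1.37 and Txnrd1 between 0.52 and 0.58, while Gclc and Nqo1 lie near 0 and change sign between scalings.

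Genes of proteins that control NRF2 held no counted difference. Of 16 listed partners, competitors and degradation genes, all 16 were measured and 14 reached the floor. Of these 14, 0 were counted, against 16.1% of all genes at or above the floor. The median difference of the 16 was -0.10. Cul3, the scaffold of the KEAP1 ubiquitin ligase, had 11.66 in LysM (+) and 11.81 in TB/TB cells (-0.15). Sqstm1, the autophagy adaptor p62 that can sequester KEAP1, had 14.76 in LysM (+) and 14.96 in TB/TB cells (-0.19). Bach1, the repressor that competes with NRF2 at the Hmox1 gene, had 12.37 in LysM (+) and 12.27 in TB/TB cells (0.09), and Mafg, a small MAF partner, had 8.19 in LysM (+) and 7.96 in TB/TB cells (0.23). Bach2, Nfe2l3 and Mafk had the largest absolute differences of the 14, between -0.45 and -0.38, with both values of each inside the background control range.

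Txnrd1, Gsr and Nqo1 draw on NADPH, and Nqo1 on NADH as well. Of 12 listed genes of NADPH supply 9 were measured and all 9 reached the floor. Of these 9, 0 were counted, against 16.1% of all genes at or above the floor. By any amount 7 were higher and 2 lower (6 and 3 under quantile normalization or loess), beside 57.1% and 42.9% of those genes. The median difference of the 9 was 0.21. Me2, a mitochondrial malic enzyme, had 8.38 in LysM (+) and 7.87 in TB/TB cells (0.51). Pgd, of the pentose phosphate pathway, differed by 0.32, and Idh2, mitochondrial isocitrate dehydrogenase, by 0.32. Me1, the cytosolic malic enzyme and a known NRF2 target, had 6.45 in LysM (+) and 6.73 in TB/TB cells (-0.28), inside the background control range on both arrays. G6pdx was not among the named genes used here.

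The NADPH oxidase makes superoxide in macrophages, and the superoxide dismutases and catalase remove it and the peroxide that follows. Of 15 listed NADPH oxidase, nitric oxide synthase and related genes 13 were measured and 8 reached the floor. Of these 8, 0 were counted, against 16.1% of all genes at or above the floor. Rac1, a GTPase that activates the oxidase, differed by 0.36, Ncf4, a cytosolic oxidase subunit, by -0.31, Cybc1, a chaperone of the oxidase, by 0.20 and Cybb, its catalytic subunit, by -0.08. Of 6 genes for superoxide dismutases, catalase and related proteins 5 were measured and 4 reached the floor. Against the same 16.1% of all genes, 1 of these 4 was counted. This was Ccs, the copper chaperone of superoxide dismutase, at 6.48 in LysM (+) and 7.33 in TB/TB cells (1.80-fold lower), its LysM (+) value inside the background control range. Sod2, the mitochondrial dismutase, differed by 0.32, and Sod1, the cytosolic one, by 0.14. Over all 9 lists together, 135 of 148 genes were measured and 110 reached the floor, of which 4 (3.64%) were higher and 6 (5.45%) lower by at least 1.5-fold. The share differing, 9.09%, is set beside 16.1% of all genes at or above the floor.

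**Figure D5:**
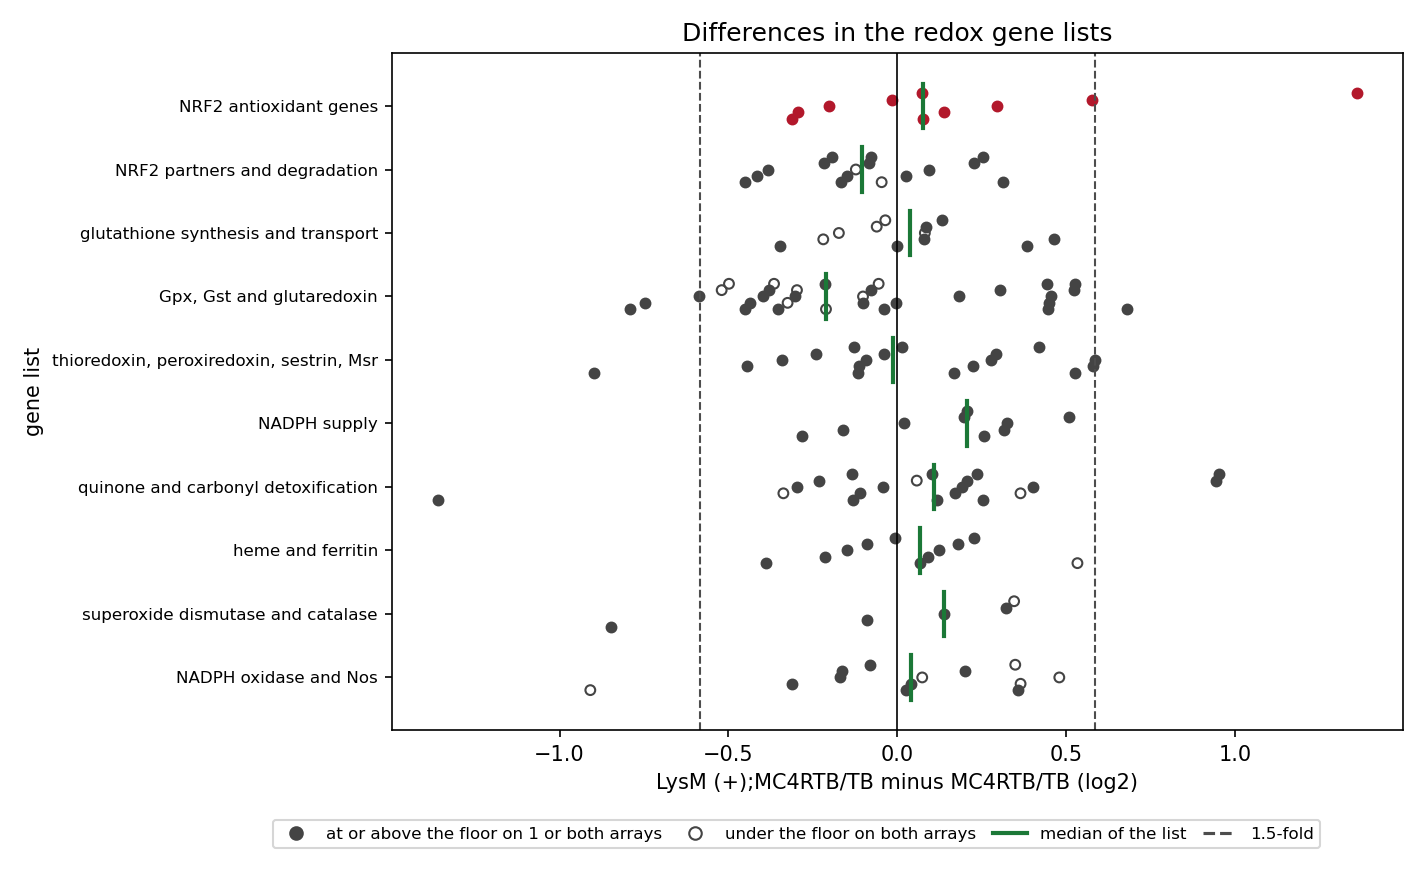
LysM (+) minus TB/TB difference (log2) of each measured gene, by list, with the 10 NRF2 antioxidant genes in red at the top; open circles are genes under the floor on both arrays, green bars are list medians and dashed lines mark 1.5-fold. Srxn1 at 1.36 and Ephx1 at -1.36 lie farthest out, and the list medians run from -0.21 to 0.21.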

How the data were processed

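The data are 1 array of each of 2 genotypes of mouse bone-marrow-derived macrophages. The authors deposited log2 values, 1 for each probe set, from RMA (background correction, normalization between arrays and summary of probes), with Affymetrix Expression Console named in the submitters' processing notes. Tool versions and the genome build were not given in the sources used here. A log base of 2 was assumed from the method. The values reach 19.51, which is high for RMA, so every fold rests on that reading.

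Of 28846 probe sets, 19572 carried 1 symbol in the platform's annotation, 0 carried several and 9274 had no gene name here or were controls. All 19572 matched the RefSeq gene table of GRCm38.p6 by Entrez ID and gave 19505 genes, of which 55 averaged several probe sets. The precision is limited by the number of arrays, and no test, p-value or standard error was computed. Calls needed 1.5-fold and a brighter value at or above the floor, the median 2-array mean of named probe sets. The calling code was checked on simulated data with planted differences, which does not measure the spread between samples. Software was Python 3.11.15, pandas 2.3.3, numpy 2.4.6, statsmodels 0.14.6 and matplotlib 3.10.9.

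The members and lists were chosen with earlier results of these data known. Genes named are the 10 members, up to 5 counted genes of each list filled up to 3 by the next largest differences at or above the floor, and Slc7a11, Me1, G6pdx, Txn1, Sqstm1, Bach1, Mafg and Cul3. Their relatives of the same family or step were added after their values were seen. Alternatives were centring, quantile normalization, loess (span 0.4), other floors, a lower and a higher fold limit, and the brightest probe set of a gene.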

Additional observations from a re-analysis of the deposited data

How the results depend on the processing

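Among the members' differences recomputed by centring, quantile normalization, loess and the brightest probe set, 35 stayed within 0.09 on the log2 scale, the largest shift of a background control probe set between the arrays. The other 5 were Srxn1 (1.26) and Nfe2l2 (-0.39) under loess, Prdx1 under quantile normalization (0.18), and Gclc under quantile normalization (-0.04) and loess (-0.02). Nqo1 had the opposite sign, 0.02, under quantile normalization. Among other redox genes, Gstm3 lost its call with centring and quantile normalization, Prdx4 with quantile normalization and loess, and Prdx3 gained one with centring (0.59). The cause was not tested. Srxn1 remained the 1 member counted under each alternative except the lower fold limit tried. There 2 were counted higher, Srxn1 and Txnrd1, and 0 lower, beside 25.5% and 15% of all genes at or above the floor. Over all genes the counts were 329 higher (3.25%) and 87 lower at 2-fold. At the lower limit (0.32 on the log2 scale) they were 2581 higher and 1523 lower. With no floor, where more genes are tested, they were 1361 higher (6.98%) and 1075 lower (5.51%). Scaling did not move the share of higher calls by over 10 percentage points (67.9% as deposited, 61.5% with loess). No paired analysis was possible because each group had 1 array. For the same reason no replicate could be left out.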

Other observations

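Txnrd1 belongs to the selenoproteins, proteins that contain selenocysteine, and these were looked at as a group after the data were seen. All 24 listed genes were measured and 20 reached the floor, of which 1 was counted higher in LysM (+) macrophages and 1 lower, against 10.9% and 5.16% of all genes. Selenoi, an enzyme of phosphatidylethanolamine synthesis, had 10.37 in LysM (+) and 9.68 in TB/TB cells, or 1.61-fold higher. The lower one was Gpx3. Selenop, the secreted selenium carrier, differed by -0.25, and the median difference of the 24 was -0.04.

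Genes that govern ferroptosis, the form of cell death driven by lipid peroxides that glutathione and Gpx4 hold back, were also listed after the data were seen. Of 14 measured genes 11 reached the floor, 2 were counted higher and 1 lower (27.3% in either direction, against 16.1% of all genes at or above the floor). Steap3, a ferrireductase that prepares iron for transport, had 13.28 in LysM (+) and 12.08 in TB/TB cells (2.30-fold higher), and Tfrc, the transferrin receptor, had 12.41 in LysM (+) and 13.22 in TB/TB cells (1.75-fold lower). Alox12, a lipoxygenase, had 6.70 in LysM (+) and 5.75 in TB/TB cells, both inside the background control range. Acsl4, which loads membranes with oxidisable fatty acids, differed by 0.26.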
